A study of Mus musculus with 18 samples.

Results

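This account covers 10 genes of the ADP-ribosylation system in activated mouse plasmacytoid dendritic cells (pDCs), out of 54532 genes in the deposited count table. They were taken by symbol, with earlier results of these data known. The set holds 6 PARP genes linked to interferon or antiviral defence (Parp9, Parp10, Parp11, Parp12, Parp14 and Zc3hav1), Dtx3l, which encodes the partner of Parp9, and Parp3. Parp1 and Parp2, which act in DNA repair, are the reference. Parp3 also acts at DNA breaks and is not counted in that reference. All 10 were found once and passed the filter on low counts, which 14876 genes passed. Wild-type C57BL/6 mice gave the marrow, which was cultured for 7 days with Flt3L at 80 ng/mL, and pDCs were enriched from it on B220 beads to a routine purity of 80%, so other cells were present. They received imiquimod, a small-molecule agonist of the RNA sensor TLR7, at 2.5 µg/mL for 6 or 16 h, or the vehicle, which the labels call LAL. There were 6 groups of 3 libraries, none with a genetic change. One group had no treatment and was taken at 0 h, 3 groups received vehicle and were taken at 0, 6 or 16 h, and the 2 imiquimod groups were taken at 6 or 16 h. The series title places the study in work on the killing of tumor cells by pDCs that imiquimod has activated. Nothing in the labels ties the replicates to separate animals or cultures, so p-values here rest on a library-to-library spread that may be only technical.

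PARP enzymes use NAD to attach ADP-ribose to proteins or nucleic acids. Parp1 and Parp2 build long poly(ADP-ribose) chains at DNA breaks, whereas most other family members add single units. Several of those other members are interferon-stimulated genes: signals from the type I interferon receptor lead to the transcription factor complex ISGF3, which binds interferon-stimulated response elements (ISREs) near target genes. Plasmacytoid dendritic cells sense RNA through TLR7 and are known for very strong type I interferon secretion.

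In the mm10 build Parp14 lies at chr16:35832874-35871544 on the minus strand, Dtx3l at chr16:35926511-35939151 on the minus strand and Parp9 at chr16:35938470-35972605 on the plus strand. The 3 genes span 140 kb. Parp9 and Dtx3l are arranged head to head: their annotated starts are 681 bases apart and their bodies overlap by 682 bases. Zc3hav1 (chr6:38305286-38354603) and Parp12 (chr6:39086410-39118349) are both on the minus strand of chromosome 6, and Parp11 (chr6:127446840-127494261) is on its plus strand, far from them. The remaining genes stand apart, with Parp1 at chr1:180568924-180601254 (plus), Parp2 at chr14:50807841-50821301 (plus), Parp3 at chr9:106470322-106476949 (minus) and Parp10 at chr15:76231174-76243441 (minus).

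RefSeq promoter windows (GRCm38.p6, 250 bases before to 50 after a start) were matched for 7 of the 10 genes; Parp9, Parp10 and Parp14 were not matched. The 8 windows were searched on both strands for the ISRE core, a pair of GAAA half-sites with any 2 bases (NN) between them, and for the gamma-activated sequence TTCNNNGAA (GAS), which reads the same on both strands. The core is in 3.44% and the GAS pattern in 8.3% of all 32851 windows of this length. Parp11 alone of the 7 held a match, in the window chr6:127446590-127446889 (plus strand). Its ISRE core, read on the opposite strand, covers positions -44 to -35 from the start, and a GAS pattern covers -37 to -29 and overlaps it. The second Parp11 window held neither. Below, the Parp11 window is set beside those of Parp12 (chr6:39118300-39118599, minus), which had the largest increase at 6 h, Dtx3l (chr16:35938978-35939277, minus), which faces Parp9, and Parp1 (chr1:180568641-180568940, plus), a repair gene that was lower at 6 h. Capitals mark the joined ISRE core and GAS match. A match is a string of letters and not a measured site, and its absence covers these windows only.
Parp11: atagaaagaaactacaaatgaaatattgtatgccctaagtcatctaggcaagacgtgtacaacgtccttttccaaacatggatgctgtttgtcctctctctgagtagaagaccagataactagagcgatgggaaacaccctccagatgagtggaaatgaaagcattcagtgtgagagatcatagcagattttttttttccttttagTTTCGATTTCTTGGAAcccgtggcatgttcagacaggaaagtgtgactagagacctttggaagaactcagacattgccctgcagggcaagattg
Parp12: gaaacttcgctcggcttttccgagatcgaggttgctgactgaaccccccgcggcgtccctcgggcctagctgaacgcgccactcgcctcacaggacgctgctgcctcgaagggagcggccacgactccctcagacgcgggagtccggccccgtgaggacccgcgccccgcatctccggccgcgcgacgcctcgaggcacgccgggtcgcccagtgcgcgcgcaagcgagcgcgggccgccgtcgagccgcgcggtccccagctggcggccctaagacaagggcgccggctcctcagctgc
Dtx3l: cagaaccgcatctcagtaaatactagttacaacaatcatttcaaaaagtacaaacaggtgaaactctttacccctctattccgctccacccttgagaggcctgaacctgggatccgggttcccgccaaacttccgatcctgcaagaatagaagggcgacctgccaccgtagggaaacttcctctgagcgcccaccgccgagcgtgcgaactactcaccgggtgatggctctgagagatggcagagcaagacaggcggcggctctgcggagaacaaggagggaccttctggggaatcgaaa
Parp1: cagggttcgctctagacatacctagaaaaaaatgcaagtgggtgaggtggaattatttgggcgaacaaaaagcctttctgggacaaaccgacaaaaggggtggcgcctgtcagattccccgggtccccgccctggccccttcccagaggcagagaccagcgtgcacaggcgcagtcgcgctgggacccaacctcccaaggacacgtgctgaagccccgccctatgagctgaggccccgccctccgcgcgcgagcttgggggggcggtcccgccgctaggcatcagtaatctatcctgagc

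Library totals ran from 10609741 to 13447018 counts. Levels are CPM, counts relative to library size after TMM scaling, as mean ± SD of 3 libraries. A call is an adjusted p under 0.05 in edgeR's quasi-likelihood test, fitted to all 18 libraries and adjusted over all 14876 genes. The summed level of 12 pDC marker genes was 7392 to 7558 CPM in the vehicle libraries at 6 h and 6304 to 6547 CPM with imiquimod, and 9027 to 9134 against 4389 to 4470 CPM at 16 h. Of the 12, 6 were higher and 6 lower at 6 h (median log2 fold change -0.01), and 1 was higher, 9 lower and 2 not called at 16 h (median -0.91). Among all tested genes 37.7% were called higher and 39.2% lower at 6 h, and 39.1% and 38.1% at 16 h. The marker calls in this paragraph are read against these shares. Siglech, a defining pDC surface receptor, was at 1154 CPM in vehicle and 299 CPM in imiquimod libraries at 6 h, and at 1636 and 169 CPM at 16 h, while Bst2 was at 248 and 451 CPM at 6 h and 256 and 263 CPM at 16 h. The summed level of 7 monocyte and macrophage markers was 1568 to 1702 CPM in vehicle and 158 to 163 CPM with imiquimod at 6 h, and 1983 to 2061 against 62.5 to 71.1 CPM at 16 h. In vehicle most of that sum was Ccr2, which pDCs also express, at 1323 CPM at 6 h against 71.1 CPM with imiquimod; 4 of the 5 tested markers fell at each time, and Fcgr1 rose, from 0.369 to 16.8 CPM at 6 h. The 6 cDC1 markers summed to 416 to 421 against 147 to 166 CPM at 6 h and 379.6 to 407 against 98.8 to 101 CPM at 16 h. All 6 were called lower at 6 h, and 5 were lower and 1 not called at 16 h. The 6 cDC2 markers summed to 359 to 379.5 against 155 to 159 CPM at 6 h and 359.6 to 363.5 against 126 to 129 CPM at 16 h, where Cd209a was at 0 counts with imiquimod. All 6 cDC2 markers were called lower at 6 h, and 5 were lower and 1 higher at 16 h. The 6 B cell markers summed to 108 to 118 against 171 to 185 CPM at 6 h, and 114 to 144.5 against 192 to 205 CPM at 16 h. That rise was Pax5, from 18.9 to 112 CPM at 6 h and from 21.3 to 133 CPM at 16 h; of the 6, 2 were higher and 4 lower at 6 h (median -0.38), and 1 was higher and 5 lower at 16 h (median -0.51). Markers of T and NK cells and of neutrophils summed to at most 1.4 and 1.67 CPM, and erythroid markers to at most 0.194 CPM, in any library. The part of these marker changes in the results below was not tested, and in bulk RNA fewer cells of a type cannot be told apart from less RNA per cell.

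Before stimulation the strongest transcripts of the set, per kb of exon, were Zc3hav1 and Parp1. Zc3hav1 encodes ZAP, which binds CpG-rich viral RNA and recruits RNA decay factors; it stood at 32.8 ± 0.76 CPM per kb in the vehicle libraries at 0 h (SD, n = 3). Parp1 followed at 28.9 ± 0.865 and Dtx3l at 17.1 ± 0.336 CPM per kb. Parp9, Parp2 and Parp3 came next at 12.1, 10.7 and 10.0 CPM per kb, and neighbours in that order overlapped between libraries. Parp14 stood at 9.06, Parp11 at 4.79, Parp10 at 2.60 and Parp12 at 2.30 CPM per kb, each apart from the next. With the longest transcript as the length instead of all exons, Parp2 was at 17.9 CPM per kb and its libraries overlapped those of Dtx3l and Parp9.

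After 6 h of imiquimod the order was turned over. Parp14 was the strongest of the set at 262 ± 4.39 CPM per kb, 31.3% of the sum over the 10 genes, which was 837 CPM per kb against 150 in vehicle at 6 h. Dtx3l (138), Parp9 (123) and Parp12 (111 CPM per kb) followed, and Parp12 had been the lowest of all in vehicle. Zc3hav1 was at 75.6, Parp3 at 54.0, and Parp11 and Parp10 were both at 24.3 CPM per kb with overlapping libraries. Parp1 at 16.3 and Parp2 at 8.35 CPM per kb were last. After 16 h Parp14 (93.7 ± 2.80) and Dtx3l (88.2 ± 2.85 CPM per kb) overlapped, Parp9 was at 71.3, Zc3hav1 at 49.4 and Parp12 at 35.5 CPM per kb. Parp1 at 27.3 CPM per kb then stood above Parp3 (15.9), Parp11 (13.1), Parp10 (12.6) and Parp2 (10.4). The longest transcript put Parp9 (169) above Dtx3l (149 CPM per kb) at 6 h, and at 16 h they overlapped at 98.0 and 95.1 CPM per kb.

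**Figure D1:**
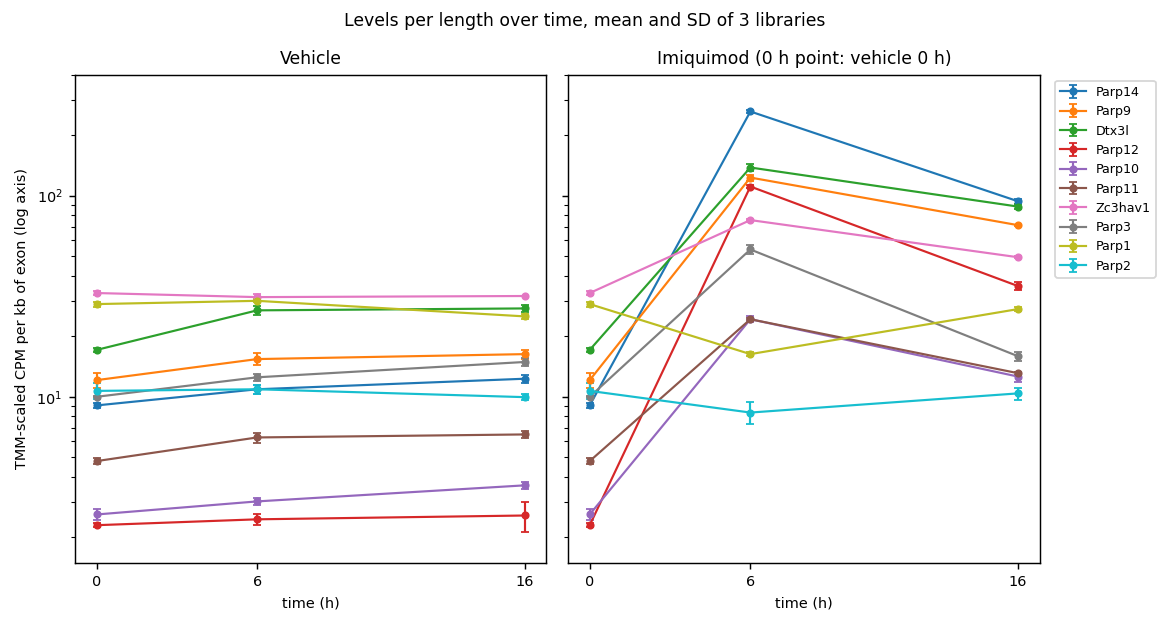
Level of each gene (TMM-scaled CPM per kb of exon, log axis) against time in h, in vehicle (left) and imiquimod (right, drawn from the vehicle 0 h mean); points are means of 3 libraries and lines SD. In imiquimod Parp14 goes from 9.06 to 262 and then 93.7 CPM per kb and Parp12 from 2.30 to 111 and 35.5, while in vehicle Dtx3l goes from 17.1 to 26.9 and 27.5.

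At 6 h, 8 of the 10 genes were higher with imiquimod than in vehicle of the same time, where 37.7% of all tested genes were called higher, and Parp1 and Parp2 were lower, where 39.2% of all were. The libraries of the 2 groups did not overlap for any of the 10, as for 76.6% of all tested genes. With 76.9% of genes called in either direction, being called sets the 10 genes little apart; the sizes of the differences are given below. The median log2 fold change of the 10 was 2.24, against -0.04 over all tested genes. As the set was chosen with earlier results known, this contrast is a description and no test, here and at 16 h.

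The chromosome 16 trio rose together. Parp14, a mono-ADP-ribosyltransferase with macrodomains, read 99.9, 96.0 and 107 CPM in the vehicle libraries and 2389, 2449 and 2467 CPM in the imiquimod libraries at 6 h. Every imiquimod library was thus far above every vehicle library, a 24.1-fold difference (log2 fold change 4.59, SE 0.039, adjusted p = 8.47e-84). Parp9, a macrodomain protein that works in a complex with Dtx3l, read 72.2, 72.0 and 81.2 CPM in vehicle and 576, 608 and 614 CPM with imiquimod. That was a 7.98-fold rise (log2 3.0, SE 0.043, adjusted p = 1.94e-60), with the groups well apart. Dtx3l, an E3 ubiquitin ligase of the Deltex family, read 147, 152.5 and 162 CPM in vehicle and 762, 822 and 789 CPM with imiquimod. Its rise was 5.15-fold (log2 2.36, SE 0.036, adjusted p = 3.33e-66), and its 95% interval (2.29 to 2.44) did not overlap that of Parp9 (2.91 to 3.08). No test of Parp9 against Dtx3l was run, and the intervals rest on a library-to-library spread that may be only technical.

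The balance within the trio shifted with treatment. There were 0.488 ± 0.0147 Parp9 counts for each Dtx3l count in vehicle at 6 h and 0.758 ± 0.0192 with imiquimod (SD, n = 3), and 0.504 ± 0.0155 and 0.689 ± 0.0182 at 16 h. Parp14 counts for each Parp9 count went from 1.35 ± 0.0344 to 4.07 ± 0.0743 at 6 h, and stood at 1.45 ± 0.0298 and 2.51 ± 0.0743 at 16 h. None of these 4 pairs of groups overlapped between libraries. At 6 h 76.6% of all tested genes did not overlap either, and no such share was taken for ratios of genes. The ratios restate the differing fold changes of the trio and are no separate result. The libraries were made with a directional kit, but whether counting used strand is not given in the sources used here, and 6.63% of 75-base windows of Parp9 transcripts also lie in Dtx3l. Of Dtx3l windows, 6.72% lie in another gene, so some reads of the pair cannot be told apart. Gm15564, an antisense gene that overlaps the Parp9 body by 5854 bases, had 37 counts in all vehicle and 12 in all imiquimod libraries at 6 h, and 17 and 59 at 16 h. Gm49730, a model inside Parp14 on the same strand, went from 54 to 1099 counts at 6 h, and had 92 and 597 at 16 h.

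Parp12, a zinc-finger mono-ADP-ribosyltransferase that restricts several RNA viruses, had the largest fold change of the set. It read 9.49, 10.5 and 9.52 CPM in vehicle and 433, 445.5 and 446 CPM with imiquimod. The difference was 44.8-fold (log2 5.49, SE 0.058, adjusted p = 1.03e-77), and 1.30% of tested genes had a higher log2 fold change. This SE is derived from the test statistic and is likely too small for so large a change. The antisense neighbour of Parp12, 4930599N23Rik, whose start is 124 bases away, had 8 counts in vehicle and 301 with imiquimod over the 3 libraries each. Parp10, a mono-ADP-ribosyltransferase with ubiquitin-interaction motifs, read 12.3, 13.3 and 13.2 CPM in vehicle and 102, 102 and 108 CPM with imiquimod. This was an 8.04-fold rise (log2 3.01, SE 0.066, adjusted p = 5.15e-55). Plec, which overlaps Parp10 on the same strand by 1401 bases and shares 2.99% of its windows, moved the other way, from 27665 to 11267 counts. Parp11, a mono-ADP-ribosyltransferase known to modify the interferon-receptor ligase β-TrCP, read 45.8, 45.3 and 41.3 CPM in vehicle and 173, 169 and 170.2 CPM with imiquimod. It rose 3.87-fold (log2 1.95, SE 0.048, adjusted p = 1.28e-51), with the groups well apart. Gm43633, a model inside Parp11 on the same strand, went from 223 to 524 counts.

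Zc3hav1, already high in resting cells, rose least among the antiviral members. It read 207, 197 and 207 CPM in vehicle and 488, 500.7 and 489 CPM with imiquimod, a 2.42-fold difference (log2 1.27, SE 0.034, adjusted p = 1.24e-49). Parp3, which adds single ADP-ribose units at DNA double-strand breaks, moved with the antiviral genes and not with Parp1 and Parp2. It read 44.1, 46.3 and 48.0 CPM in vehicle and 189.5, 208.8 and 200.6 CPM with imiquimod. The rise was 4.33-fold (log2 2.11, SE 0.049, adjusted p = 9.84e-54). Rrp9, which overlaps Parp3 by 987 bases on the opposite strand but shares no 75-base window of exon, went from 401 to 1015 counts.

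The reference genes went down at 6 h. Parp1, the main poly(ADP-ribose) polymerase, read 156, 159 and 161 CPM in vehicle and 88.3, 86.6 and 84.3 CPM with imiquimod. It was at 54.5% of vehicle (log2 fold change -0.87, SE 0.042, adjusted p = 5.48e-32), with no overlap. Parp2, its close relative, read 37.3, 41.6 and 39.5 CPM in vehicle and 34.4, 27.1 and 29.4 CPM with imiquimod. It was at 76.7% of vehicle (log2 -0.38, SE 0.073, adjusted p = 3.43e-06), and the highest imiquimod library lay just under the lowest vehicle library. The imiquimod libraries at 6 h had TMM factors of 0.817 to 0.837, against 1.01 to 1.07 in the other libraries. With scaling by library totals the median of all genes moved to -0.39, Parp1 stood at -1.23 and Parp2 at -0.73, and 31.1% of calls were higher in place of 49.0%. The 10 directions were the same, and relative to that median Parp1 was at -0.84 and Parp2 at -0.34.

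**Figure D2:**
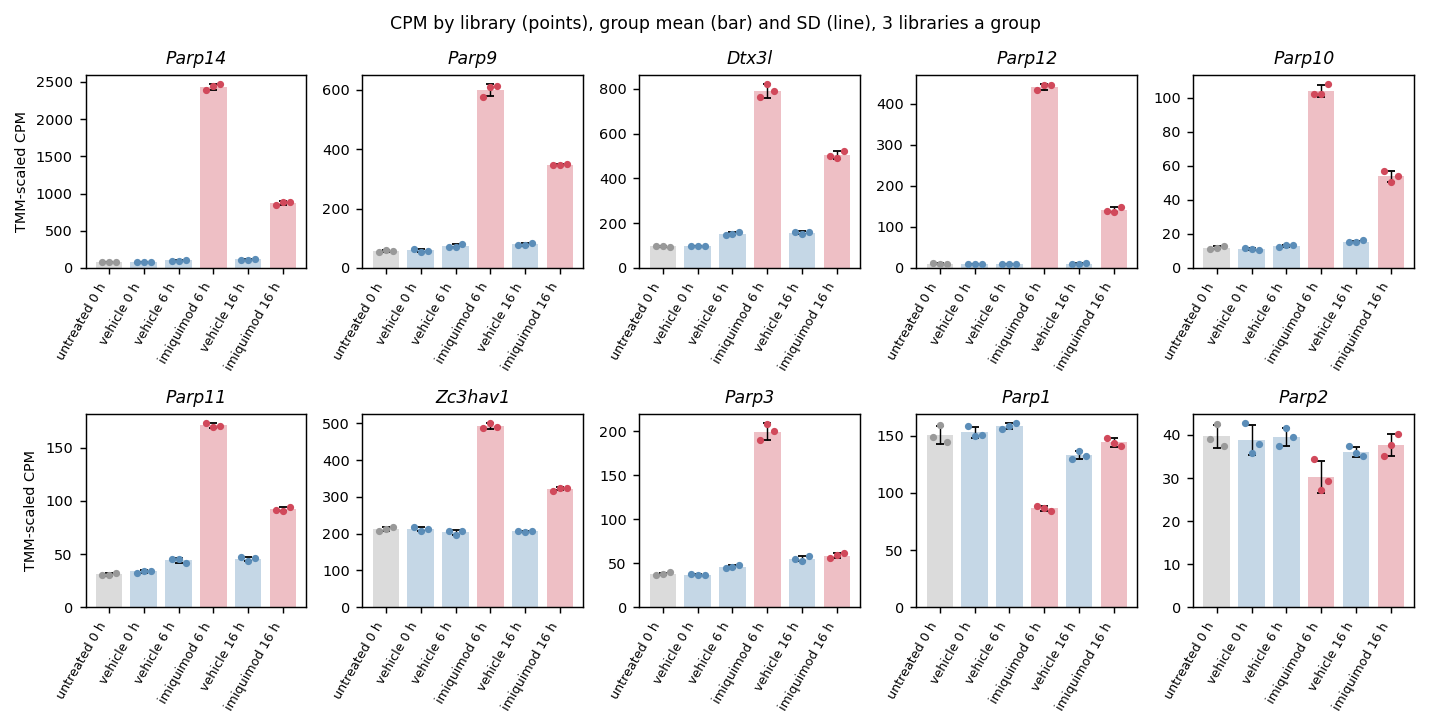
TMM-scaled CPM of each gene in every library (points), with group means (bars from 0) and SD (lines), 3 libraries a group. For 8 genes the imiquimod 6 h bar is the tallest, reaching 2435 CPM for Parp14, while Parp1 dips to 86.4 CPM there and is at 144 CPM after 16 h.

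At 16 h imiquimod still raised 7 of the 8 genes that it had raised at 6 h, and Parp1 was now slightly higher, which makes 8 genes higher, none lower and 2 not called. Of all tested genes 39.1% were called higher, 38.1% lower and 77.2% in either direction. The median log2 fold change of the 10 was 1.35, against 0.00 over all tested genes. The 3 imiquimod libraries lay above the 3 vehicle libraries for 8 of the 10, as for 40.0% of all tested genes.

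Parp14 read 111, 113 and 121 CPM in vehicle and 843, 881 and 893 CPM with imiquimod at 16 h. It was 7.59-fold higher (log2 2.92, SE 0.038, adjusted p = 9e-71), with the groups far apart. Parp12 read 8.64, 10.1 and 12.1 CPM in vehicle and 139.7, 137 and 148.5 CPM with imiquimod, a 13.7-fold difference (log2 3.78, SE 0.065, adjusted p = 1.85e-62). Parp12 thus kept the largest fold of the set. Parp9 read 78.1, 76.0 and 83.8 CPM in vehicle and 348, 345 and 349.6 CPM with imiquimod, 4.38-fold higher (log2 2.13, SE 0.044, adjusted p = 7.18e-51). Dtx3l was 3.21-fold higher, at 157 ± 5.54 against 505 ± 16.3 CPM (log2 1.68, SE 0.037, adjusted p = 2.58e-55). The 95% intervals of the pair were again apart, at 2.04 to 2.22 for Parp9 and 1.61 to 1.75 for Dtx3l, again with no test between the genes.

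Parp10 was 3.46-fold higher at 16 h, with 53.8 ± 3.05 CPM against 15.5 ± 0.58 (log2 1.79, SE 0.071, adjusted p = 1.2e-37). Parp11 was 2.01-fold higher, with 92.0 ± 1.80 CPM against 45.7 ± 1.92 (log2 1.01, SE 0.051, adjusted p = 8.9e-31). Zc3hav1 was 1.56-fold higher, with 322 ± 4.45 CPM against 207 ± 1.09 (log2 0.64, SE 0.034, adjusted p = 2.44e-29). In all 3 every imiquimod library was above every vehicle library.

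Parp3 parted from the antiviral genes at 16 h. It read 54.8, 52.5 and 57.9 CPM in vehicle and 55.6, 58.9 and 61.9 CPM with imiquimod, and the groups overlapped. The log2 fold change was 0.09 (95% interval -0.01 to 0.20, adjusted p = 0.108). It was called, at 0.13, without vehicle 16 h replicate 3 (adjusted p = 0.0458) or imiquimod 16 h replicate 1 (adjusted p = 0.0455). Parp1 read 129.8, 137 and 133 CPM in vehicle and 148, 143.5 and 141 CPM with imiquimod, a 1.08-fold difference (log2 0.12, SE 0.040, adjusted p = 0.00631). Without imiquimod 16 h replicate 1 it was 0.09 and no longer called (adjusted p = 0.0602). Parp2 was at 36.1 ± 1.15 CPM in vehicle and 37.7 ± 2.57 with imiquimod, with overlapping libraries (log2 0.06, 95% interval -0.08 to 0.20, adjusted p = 0.435).

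**Figure D3:**
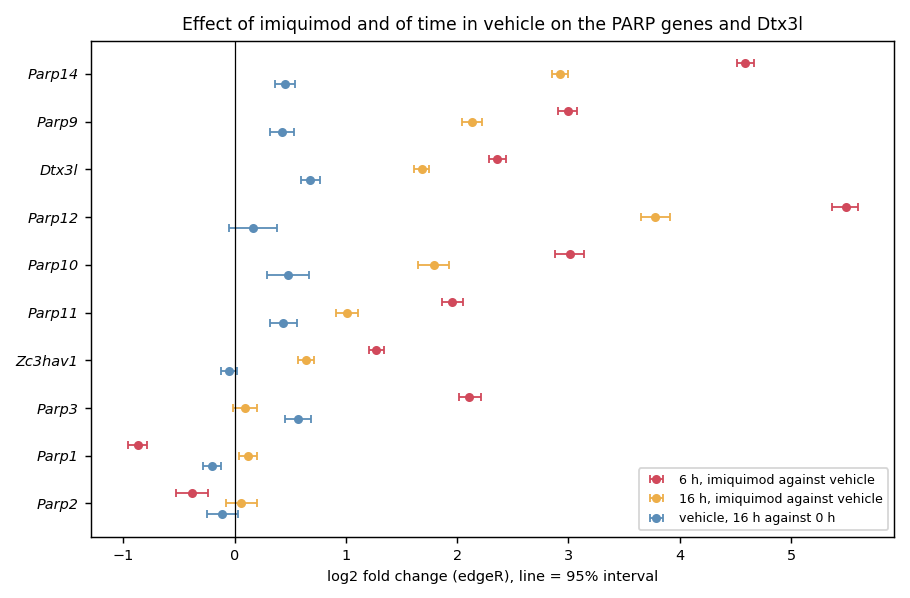
Log2 fold changes (points) with 95% intervals (lines) from edgeR for imiquimod against vehicle at 6 h and at 16 h and for vehicle at 16 h against 0 h, 3 libraries a group. Intervals can be too narrow where the change is large, as for Parp12. Parp12 has the largest imiquimod effects (5.49 and 3.78), Parp3 goes from 2.11 to 0.09, and Parp1 is below 0 at 6 h (-0.87) and just above it at 16 h (0.12).

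The imiquimod effect differed between the 2 times for all 10 genes, where 56.9% of tested genes were called for this difference: 8 were lower at 16 h than at 6 h (28.4% of all tested genes were) and Parp1 and Parp2 were higher (28.5% of all). Parp3 lost most. Its effect fell by 2.02 on the log2 scale (SE 0.074, adjusted p = 7.31e-39), so the fold at 16 h was 24.6% of that at 6 h, and 97.4% of tested genes had a higher value of this difference. Parp12 followed with -1.71 (SE 0.11, adjusted p = 9.01e-23) and Parp14 with -1.67 (SE 0.054, adjusted p = 2.67e-42), leaving 30.6% and 31.5% of their folds at 6 h. Parp10 kept 43.0% of its fold (log2 difference -1.22, SE 0.11) and Parp11 kept 52.1% (-0.94, SE 0.072). Parp9 kept 54.9% (-0.87, SE 0.062), Dtx3l 62.3% (-0.68, SE 0.051) and Zc3hav1 64.5% (-0.63, SE 0.048). These shares depend on the scale: as a share of the log2 fold change at 6 h, Parp9 and Dtx3l kept 71.1%, Parp12 68.9%, Parp14 63.7%, Parp10 59.5%, Parp11 51.8%, Zc3hav1 50.2% and Parp3 4.42%. Parp3 was lowest and Dtx3l among the highest on both scales, while Zc3hav1 was highest on the fold scale and, of the 7 genes still raised, lowest on the log2 scale. For Parp1 the difference was 0.99 (SE 0.058, adjusted p = 3.64e-26) and for Parp2 0.44 (SE 0.10, adjusted p = 0.000124). Under library totals the median of all genes for this difference was 0.33, and Zc3hav1 stood at -0.30, Dtx3l at -0.35, Parp9 at -0.53, Parp11 at -0.61 and Parp2 at 0.78, all with the same direction and call; 75.5% of calls were then higher in place of 50.1%.

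The imiquimod libraries compared directly gave the same directions: 8 genes were lower at 16 h than at 6 h (31.8% of all tested genes were) and Parp1 and Parp2 were higher (31.9% of all), where 63.7% of genes were called either way, with no overlap for any of the 10 (67.5% of all). This comparison shares its libraries with those above. Parp3 fell by 1.76, Parp12 by 1.64 and Parp14 by 1.48 on the log2 scale, Parp10 by 0.95, Parp11 by 0.89, Parp9 by 0.79, Dtx3l by 0.65 and Zc3hav1 by 0.61. Parp1 was 1.67-fold and Parp2 1.24-fold higher at 16 h than at 6 h. Under library totals, where the median of all genes was 0.31, Parp9 was at -0.49, Dtx3l at -0.35, Zc3hav1 at -0.31 and Parp2 at 0.61, and 74.6% of calls were higher in place of 50%.

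Time in vehicle alone moved some of the same genes by small amounts. At 6 h against 0 h in vehicle, 5 of the 10 were higher (26.0% of all tested genes were), none was lower (26.9% of all) and 5 were not called, where 52.9% of genes were called either way. Dtx3l moved most: it read 96.8, 96.9 and 100.2 CPM at 0 h and 147, 152.5 and 162 CPM at 6 h, a 1.57-fold rise (log2 0.65, SE 0.041, adjusted p = 6.85e-24). Parp11 rose 1.31-fold, Parp9 1.27-fold, Parp3 1.24-fold and Parp14 1.2-fold. Parp10 was 1.16-fold higher with no overlap but was not called (adjusted p = 0.058); it was called without vehicle 0 h replicate 1 (log2 0.28, adjusted p = 0.0326) or vehicle 6 h replicate 1 (log2 0.26, adjusted p = 0.0378). Parp12, which imiquimod raised most, was at 9.19 ± 0.213 and 9.83 ± 0.568 CPM (log2 0.10, 95% interval -0.11 to 0.31, adjusted p = 0.462). Zc3hav1 was at 213.5 ± 4.99 and 204 ± 6.24 CPM (log2 -0.07, adjusted p = 0.0982), and under library totals it was called lower (-0.08, adjusted p = 0.0482). Parp1 (log2 0.05, 95% interval -0.03 to 0.13) and Parp2 (0.02, -0.11 to 0.16) were not called.

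At 16 h against 0 h in vehicle, 6 of the 10 were higher (28.4% of all tested genes were) and Parp1 was lower (30.0% of all), where 58.4% of genes were called either way. Dtx3l was 1.61-fold, Parp3 1.48-fold, Parp10 1.39-fold, Parp11 and Parp14 1.36-fold and Parp9 1.34-fold higher. Parp1 fell from 153 ± 4.6 to 133 ± 3.51 CPM (log2 -0.20, SE 0.040, adjusted p = 9.49e-06). Zc3hav1 (log2 -0.05, 95% interval -0.12 to 0.02, adjusted p = 0.266), Parp2 (-0.11, -0.25 to 0.03, adjusted p = 0.193) and Parp12 (0.17, -0.05 to 0.38, adjusted p = 0.19) were not called. Under library totals Zc3hav1 was called lower (-0.10, adjusted p = 0.0148), and without vehicle 16 h replicate 1 Parp12 was called higher (0.28, adjusted p = 0.0398). The vehicle libraries at 6 and 16 h also serve as controls for imiquimod, so these values and the imiquimod effects share libraries.

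Between vehicle and untreated cells at 0 h edgeR called none of the 10 genes, nor any of the 14876 tested genes (0%). At an unadjusted p under 0.05 there were 708 genes by edgeR and 347 by DESeq2, which also called 0 after adjustment. Parp12 (log2 -0.19) and Parp11 (0.12) had the largest differences, and they were the 2 genes whose libraries did not overlap, as for 10.9% of all tested genes.

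The genes whose pattern was most like each member were named by the Pearson correlation of log2(CPM + 1) over the 18 libraries, among 9426 genes with a mean of at least 5 CPM. These are descriptions over libraries that share the same 6 groups, with no test. Parp14 was closest to Nt5c3, a pyrimidine nucleotidase (r = 0.9989), Trim30a and Plxnd1. Parp9 was closest to Igtp, an interferon-inducible GTPase (0.9985), Aebp2 and Irgm1, and Dtx3l to Swap70 (0.9985), the costimulatory receptor gene Cd40 (0.9982) and Irgm1. Parp12 was closest to Ifih1, which encodes the RNA sensor MDA5 (0.9979), Olfr56 and Etnk1. Parp10 was closest to the RNA editing enzyme Adar (0.9979), Trim30a and Parp14 itself (0.9972). Parp11 was closest to the adhesion gene Icam1 (0.9985), Stat2 (0.9973) and Mdfic, and Zc3hav1 to Morc3 (0.9972), Usp25 and Slfn5.

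Parp3 had other neighbours. Its closest genes were Gsdmd, which encodes the pore-forming protein gasdermin D (0.9964), Samhd1, a nucleotide hydrolase that restricts viruses (0.9957), and Foxp4. They were picked for following Parp3, so being high at 6 h and near vehicle at 16 h comes from that choice. The log2 fold changes were 1.52 and 0.06 for Gsdmd, 1.75 and 0.20 for Samhd1 and 1.38 and 0.05 for Foxp4. Parp1 was closest to Idh2, a mitochondrial isocitrate dehydrogenase (0.9740), Klhdc2 and Tcn2, with log2 fold changes of -2.20 and 0.07 for Idh2. Parp2 had the weakest match, Dcps (0.9027), followed by Ints1 and Cdk5rap2. Over the means of the 6 groups most of these nearest genes were not kept. Of the 3, 0 were kept for Parp1, Parp2 and Parp10, 2 for Parp11 and Dtx3l, and 1 for each other member.

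The related lists below are read against all tested genes, of which 37.7% were higher and 39.2% lower at 6 h, and 39.1% higher and 38.1% lower at 16 h. Of 6 other PARP genes tested at 6 h, 2 were higher and 4 lower, with a median log2 fold change of -0.45, and at 16 h 4 were lower and 2 not called (median -0.67). Tnks, which encodes tankyrase 1, had the largest change: it fell by 1.52 at 6 h, from 474 to 165 CPM, and by 1.89 at 16 h, from 510.1 to 138 CPM. Parp6 fell by 0.83 and 0.87 and Parp8 by 0.70 and 0.69 at the 2 times, and Tiparp rose by 0.27 at 6 h and fell by 0.64 at 16 h. Parp4, the vault PARP, rose by 0.84 at 6 h, from 122 to 218 CPM, and was not called at 16 h (0.02, adjusted p = 0.63).

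Among 15 tested erasers and readers of ADP-ribose, 5 were higher, 9 lower and 1 not called at 6 h (median -0.38), and 7, 5 and 3 at 16 h (median 0.01). Macrod1, a macrodomain hydrolase that removes single ADP-ribose units, fell by 2.20 at 6 h and 1.36 at 16 h, from levels of 4.25 and 5.16 CPM in vehicle. H2afy, the histone macroH2A1 whose macrodomain binds ADP-ribose, fell by 1.49 at both times, from 736 to 263 CPM at 6 h. Nudt9, an ADP-ribose pyrophosphatase, rose by 1.96 and 1.52, and Nudt16 fell by 1.48 and 1.12. Nudt5, which also cleaves ADP-ribose, was not called at 6 h (-0.18, adjusted p = 0.0502) and rose by 1.23 at 16 h.

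Of 18 tested genes that make or use NAD, the substrate of PARP enzymes, 7 were higher, 9 lower and 2 not called at 6 h (median -0.08), and 6, 9 and 3 at 16 h (median -0.10). Nampt, the rate-limiting enzyme of NAD salvage, rose from 72.7 to 550.3 CPM at 6 h (log2 2.92, SE 0.038, adjusted p = 2.45e-71) and was 2.10 higher at 16 h. Sirt3, the mitochondrial NAD-dependent deacetylase, fell from 50.8 to 3.94 CPM at 6 h (log2 -3.69, SE 0.098, adjusted p = 2.9e-49) and was at -2.15 at 16 h. Nnt, a mitochondrial transhydrogenase, fell by 1.79 and 1.26, and Bst1, an NAD-consuming ectoenzyme, by 1.76 and 1.41 at a low level of 2.56 CPM in vehicle at 6 h.

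Of the 4 other Deltex ligases, 2 were higher, 1 lower and 1 not called at 6 h (median 0.36), and 2 were higher and 2 lower at 16 h (median 0.19). Dtx2 rose by 1.16 and 0.85 and Dtx1 by 0.73 and 0.71, while Dtx3 fell by 1.12 and 1.11 and Dtx4 by 0.34 at 16 h, with -0.02 at 6 h (adjusted p = 0.828). Dtx3l, at 2.36 and 1.68, had a larger log2 fold change than each of them. The 10 tested genes around ZAP, its paralog and cofactors, had 8 higher, 1 lower and 1 not called at 6 h (median 0.69), and 7, 1 and 2 at 16 h (median 0.37). The RNase gene Zc3h12a rose by 1.86 and 1.38 and N4bp1, another RNase, by 1.78 and 1.26. Rnf135 rose by 1.11 at 6 h and was not called at 16 h (0.20, adjusted p = 0.0955). The exosome gene Exosc5 fell by 1.31 at 6 h and was not called at 16 h (-0.04, adjusted p = 0.59), while Exosc7 was not called at 6 h (0.01, adjusted p = 0.939) and rose by 0.76 at 16 h. Zc3hav1l, the paralog of Zc3hav1, rose by 0.41 at 6 h and 2.18 at 16 h, where it was at 16.4 against 3.62 CPM.

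The interferon receptor and ISGF3 list had 12 of 14 genes higher and 2 lower at 6 h (median 1.24), and 10 higher and 4 lower at 16 h (median 0.51). Usp18, which limits receptor signalling, rose by 5.70 and 4.62, and Irf7, the main interferon regulatory factor of pDCs, by 5.03 and 3.36. Socs1, a feedback inhibitor of JAK kinases, rose by 4.01 and 3.72. Ifngr1, a chain of the interferon gamma receptor, fell by 2.55 at 6 h, from 133 to 22.7 CPM, and by 2.33 at 16 h.

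Partners of Parp1 and Parp2 in base excision and single-strand break repair moved in both directions. Of 15 tested genes, 9 were higher, 4 lower and 2 not called at 6 h (median 0.20), and 12 were higher, 1 lower and 2 not called at 16 h (median 0.62). Timeless, which binds Parp1, rose by 1.87 and 3.30. Polb, the gap-filling polymerase, rose by 1.18 and 0.62, and the flap nuclease gene Fen1 by 1.18 and 1.81. The uracil glycosylase gene Ung rose by 1.18 and 2.46, and the DNA ligase gene Lig1 by 0.58 at 6 h and 2.88 at 16 h, from 7.63 to 56.3 CPM. The vehicle level of these genes had itself fallen by 16 h. Against vehicle at 0 h Lig1 was at -2.49 (from 43.1 CPM), Timeless at -1.47, Ung at -1.25, Fen1 at -0.99 and Polb at -0.23. Of the 15 genes 8 were lower there (30.0% of all tested genes were), 1 was higher (28.4% of all) and 6 were not called.

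The counts of these related lists at 6 h depend on scaling more than those of the 10 genes. Under library totals 3704 of all 14876 tested genes were called higher and 8222 lower at 6 h. The list counts that follow are read against that split, which moved for genes in general. At 6 h 5 of the 15 repair genes were higher and 8 lower, 5 of the 10 ZAP genes higher and 4 lower, and 11 of the 14 interferon receptor genes higher and 3 lower. For the erasers and readers the counts became 3 higher and 11 lower, for NAD 4 and 11, for other PARP genes 1 and 4, and for Deltex ligases 2 and 2. Calls that changed direction were those of Lig3, Hpf1, Dhx30, Ddx17, Ifnar1 and Parg.

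**Figure D4:**
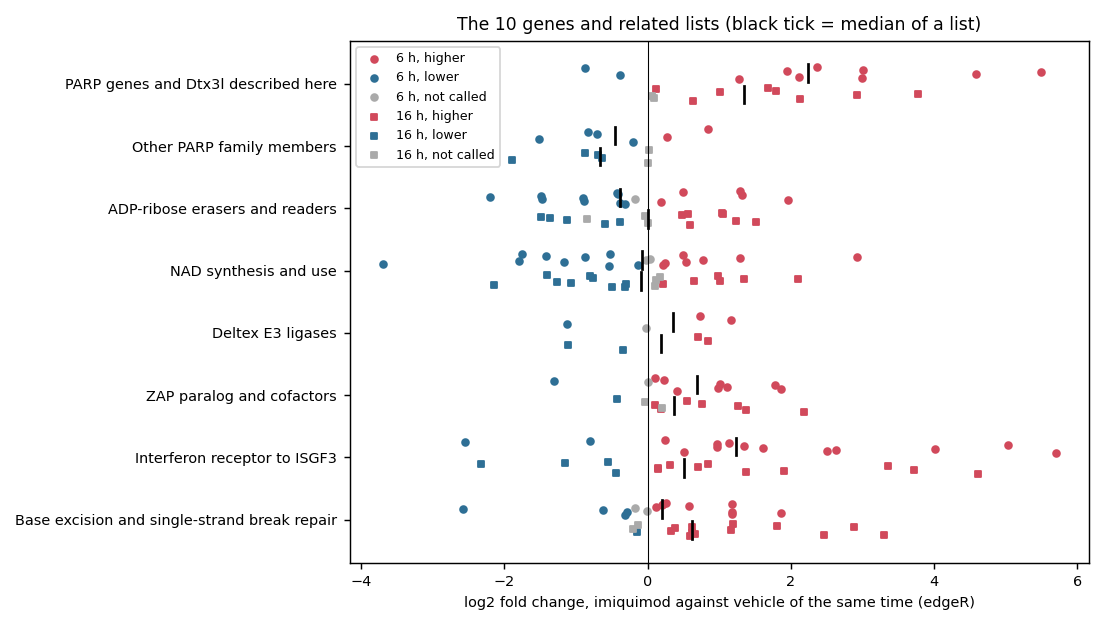
Log2 fold change of imiquimod against vehicle at 6 h (circles) and 16 h (squares) for the 10 genes and 7 related lists, each mark a gene, colored by its edgeR call; black ticks are list medians. The 10 genes have medians of 2.24 and 1.35, the interferon receptor list 1.24 and 0.51, and the other PARP genes -0.45 and -0.67.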

How the data were processed

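RNA from 18 libraries was depleted of ribosomal RNA and sequenced with a directional kit as pairs of 75-base reads, per the labels' protocols. The authors deposited a table of raw counts per gene, the only unit used. STAR and mm10 are named in the submitters' processing notes; the counting program, strand setting and annotation release are not given in the sources used here. Groups came from the sample labels. Genes passing filterByExpr (minimum count 10) were scaled by TMM and fitted with edgeR 4.0.16 (R 4.3.3) as 6 groups, and 7 contrasts were tested with glmQLFTest and Benjamini-Hochberg adjustment over all tested genes. Robust fitting was used, standard errors are the log2 fold change over the root of F, and the scripts were tested on simulated data. Alternatives were DESeq2 1.42.0, other scaling and filters, a replicate block, fits of the compared groups only and leaving out each library. Replicate pairs of each group differed by more than sampling noise, most of all in vehicle at 6 h. There chi-square per degree of freedom, near 1 for sampling noise alone, was 4.21 to 10.5, against 1.32 to 1.50 in imiquimod at 6 h. Positions and exon lengths are from GENCODE M21 (mm10), in which 97.6% of gene IDs were found, and promoters from RefSeq.

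The members and all gene lists were chosen with earlier results of these data known. From each related list the text names called genes, up to the 4 with the largest absolute log2 fold change in a comparison and a mean of at least 1 CPM; 1 such gene is not reported here. Overlapping genes, and those starting within 1 kb, are named with their counts: Mir6904 inside Parp1 had 5 to 11 counts per group, and Ccnb1ip1 and Rpph1 beside Parp2 had at most 1.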

Additional observations from a re-analysis of the deposited data

Results flagged for a closer look

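For each of the 10 genes the imiquimod effect, as a log2 fold change against vehicle, differed between 16 h and 6 h by edgeR's test of the difference itself. The value at 16 h minus that at 6 h was -2.02 for Parp3, -1.71 for Parp12, -1.67 for Parp14, -1.22 for Parp10, -0.94 for Parp11, -0.87 for Parp9, -0.68 for Dtx3l and -0.63 for Zc3hav1. It was 0.99 for Parp1 and 0.44 for Parp2. Of all tested genes 56.9% passed the same test.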

How the results depend on the processing

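Of 970 values of the 10 genes under the alternatives, 952 kept direction and call, 7 became called, 1 lost its call and 10 uncalled values near 0 changed sign; no called value reversed. All 130 values at 6 h, 190 for the difference between times and 130 between the imiquimod groups were kept, and 127 of 130 at 16 h. Under library totals 1 of the 10 genes was lower in vehicle at 6 h in place of 0, and 2 in place of 1 at 16 h, the added gene being Zc3hav1. Vehicle against untreated cells at 0 h gave 0 genes called, but 1 with DESeq2 size factors, 1 with library totals, 5 with no filter, 4 with only those groups fitted, and 0 to 7 leaving out a library (7 without untreated replicate 3, 2 without vehicle replicate 2, 1 without vehicle replicate 3). The cause was not tested. Correlations of the deviations of same-numbered libraries ran from -0.269 to 0.110 over 8959 genes. With 3 libraries a group and no differently numbered pairs for comparison, these values cannot tell whether libraries pair. A replicate block changed no call of the 10 genes and gave 11400 genes called at 6 h (11439 without it) and 11448 at 16 h (11490). At this depth precision is lowest for Parp12 and Parp10 in vehicle, which had the lowest levels of the set.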
